A study of Mus musculus with 6 samples.

Results

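The WNT signalling genes of mouse embryonic stem (ES) cells were compared between Med23 knockout and wild-type cultures. A list of 46 genes was divided by role into ligands and their acylating enzyme, receptors and receptor regulators, secreted antagonists, intracellular effectors, and transcriptional targets. Members were found by symbol in the platform annotation, taking probe sets assigned to that symbol alone and, for each gene, the one with the highest mean over the 6 arrays. In this way 45 of the 46 genes had a value, out of 18193 genes in all, and Tcf7 was not analysed here. The 45 genes were read by 102 probe sets, and 13 of them by a single one.

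All cells were ES cells of the 129SV strain, either knocked out for Med23 or wild-type. Med23 is part of Mediator, the large complex through which transcription factors contact RNA polymerase II. Each group had 3 arrays, labelled as biological replicates, and every culture was harvested with Trizol 24 hours after a change to fresh complete medium. The sources used here give neither the number of knockout clones nor the way the gene was disrupted, so effects of Med23 loss and of other differences between the lines cannot be told apart.

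WNT proteins are secreted glycoproteins that are lipid-modified by Porcn and bind Frizzled receptors together with the co-receptors Lrp5 and Lrp6. Binding holds back the destruction complex of Axin, Apc and Gsk3b, so that beta-catenin (Ctnnb1) accumulates and works with TCF/LEF proteins at target genes. In mouse ES cells this branch favours self-renewal, in part by relieving repression by Tcf7l1, and WNT signals also drive formation of the primitive streak.

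TCF/LEF proteins recognise a core often written CTTTGAA or CTTTGAT. Both spellings were searched on both strands in the 250 bases before RefSeq transcript starts (GRCm38.p6), and 28 of the 46 listed genes had such a window, with 38 windows between them. A match was present in 4 member windows, those of Dkk1, Sp5, Wnt11 and Wnt5b, or 10.5% of the member windows against 7.48% of all 32851 windows. Dkk1, Sp5 and Wnt11 are printed because all of them were among the members that were lower in knockout arrays. The sequences run 5′ to 3′ on the strand of the gene up to the base before the start, with the match in capitals, and on the Wnt11 line the match is the reverse complement ATCAAAG.
Dkk1, chr19:30549497-30549746, minus strand: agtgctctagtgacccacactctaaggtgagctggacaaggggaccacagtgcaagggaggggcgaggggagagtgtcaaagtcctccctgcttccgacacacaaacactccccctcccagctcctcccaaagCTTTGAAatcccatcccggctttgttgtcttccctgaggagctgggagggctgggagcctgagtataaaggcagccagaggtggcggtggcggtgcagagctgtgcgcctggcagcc
Sp5, chr2:70474673-70474922, plus strand: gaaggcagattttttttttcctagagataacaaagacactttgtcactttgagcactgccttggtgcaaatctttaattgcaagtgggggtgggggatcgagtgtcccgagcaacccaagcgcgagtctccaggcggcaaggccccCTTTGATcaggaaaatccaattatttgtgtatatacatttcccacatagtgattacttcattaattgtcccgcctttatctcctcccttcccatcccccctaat
Wnt11, chr7:98834862-98835111, plus strand: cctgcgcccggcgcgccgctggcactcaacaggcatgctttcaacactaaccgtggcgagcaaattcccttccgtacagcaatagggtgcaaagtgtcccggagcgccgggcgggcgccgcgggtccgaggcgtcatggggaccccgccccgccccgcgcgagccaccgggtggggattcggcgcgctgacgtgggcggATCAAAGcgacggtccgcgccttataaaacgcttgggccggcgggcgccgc

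The match lies 117 to 111 bases before the start in Dkk1, 104 to 98 in Sp5 and 51 to 45 in Wnt11. Of the 5 genes with windows that were lower in the knockout, Wnt4 and Wnt6 had no match, and Wnt11 had one in 1 of its 2 windows. None of the 5 higher genes with windows had a match in their 8 windows, where 7.48% of all windows had a match. Whether matches go with calls was not tested. These matches describe the letters of the windows only, and binding was not measured.

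Across the deposited values, array medians lay between 4.61 and 4.64 (log2), and arrays correlated at 0.9978 to 0.9981 within the knockout group and at 0.993 to 0.9974 within the wild-type group. Wild-type replicate 1 stood apart, where 752 probe sets were lower than in the other wild-type arrays (their mean) by 2-fold or more and 1 was higher by as much. Among the WNT genes, 3 probe sets of Apc and a dimmer one of Fzd3 were lower by that much. Med23 itself was 7.40, 7.37 and 7.33 in knockout replicates 1, 2 and 3, against 8.95, 8.86 and 8.84 in the wild-type replicates (difference -1.52, SE 0.06, limma adjusted p = 2.69e-05). At this single probe set the fall was 2.86-fold, and the knockout values stayed above the median of all probe sets. Whether working Med23 transcript remained was not tested. The ES marker list (Pou5f1, Nanog, Sox2, Zfp42, Esrrb, Klf4, Tfcp2l1 and Dppa5a) averaged 11.80 to 11.84 per knockout array and 11.73 to 11.92 per wild-type array, and all 8 genes had group means above 4.62, the middle value over all probe sets, in each group. Pou5f1, Nanog and Sox2, which keep ES cells pluripotent, did not pass the test (differences -0.04, 0.23 and 0.07), and Klf4 fell by 0.63. Of 10 endoderm markers 9 fell, and their summed linear level was 478 to 509 in knockout arrays against 2822 to 3754 in wild-type arrays. Of 8 trophoblast markers 3 fell, the keratin genes Krt7, Krt8 and Krt18. The other 5, Cdx2, Eomes, Tfap2c, Gata3 and Elf5, did not pass (differences -0.27, 0.41, 0.16, -0.10 and 0.05), so the list did not fall as a whole. Of 5 neural markers Pax6 rose (2.21) and Nes fell (-0.56), of 6 mesoderm markers Twist1 fell (-0.61), and of 7 fibroblast markers Thy1 fell (-0.73). Over all genes 8.53% rose and 10.4% fell, so a single call in lists this short does not describe a cell type. In 6 of the 7 fibroblast markers both group means lay below 4.62. The summed linear level of the neural list was 629 to 651 in knockout arrays against 464 to 564 in wild-type arrays. Pax6 was the only gene of this list that rose past the test. Sox1, Tubb3 and Neurog2 did not pass (differences 0.08, 0.16 and 0.23), so the sum does not show a general neural rise. In these bulk samples fewer cells of a type and less RNA per cell cannot be told apart. The 3 arrays per group limit the precision of all values.

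The comparison asks how Med23 knockout ES cells differ from wild-type ones in transcripts of the machinery that sends, receives and carries out WNT signals. In knockout cells 5 of 10 ligand-group genes, Porcn among them, and 3 of 9 secreted antagonist genes were lower, against 10.4% of all genes. Largest were the falls of the antagonist gene Dkk1 (6.90-fold) and the ligand genes Wnt6 (1.84-fold) and Wnt4 (1.65-fold). Of these ligand and antagonist falls, only those of Dkk1, Wnt4, Wnt6 and Wnt7b held whichever array was left out. The probe sets of Sfrp1, counted among the antagonists that fell, disagreed in direction. In a wider list of other pathway genes, 1 of 10 further Wnt genes fell. Of 8 further antagonist genes in that list, none fell and 1 rose. A set of receptor genes, Fzd5, Lgr4, Fzd2 and Fzd7, and the DNA-binding effector genes Tcf7l1 and Lef1 were higher by 1.17-fold to 1.42-fold. Among these rises only those of Lgr4 and Tcf7l1 held in every such fit. Transcripts of the destruction complex (Axin1, Apc and Gsk3b) and of beta-catenin did not pass the test at their brightest probe sets. At the brightest probe set of each of the 45 genes, Dkk1 alone changed by at least 2-fold, and 2 dimmer probe sets of Sfrp1 also did.

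In numbers, 6 WNT genes rose and 10 fell at a limma adjusted p under 0.05, or 13.3% and 22.2% of 45, where 8.53% and 10.4% of all genes did. The share called in either direction was 35.6% against 18.9% of all genes, and 17.6% of 74 further genes of the pathway. The 45 genes were chosen with earlier results of these data known, so these shares do not test the pathway. In 25 of the 45 genes (55.6%) the 3 knockout values did not overlap the 3 wild-type values, against 40.9% of all genes. The median difference, knockout minus wild-type, was -0.08 (log2) over the WNT genes and 0.02 over all genes. The count of rises depended on single arrays: it was 2 without knockout replicate 1, 2 or 3 and 2 without wild-type replicate 2, while the count of falls was 5 without knockout replicate 1 or 3 and 6 without wild-type replicate 2. When wild-type replicate 1 was left out instead, the counts were 6 and 8. In 7 genes the call held whichever array was left out, namely Wnt4, Wnt6, Wnt7b, Fzd6, Lgr4, Dkk1 and Tcf7l1.

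**Figure D1:**
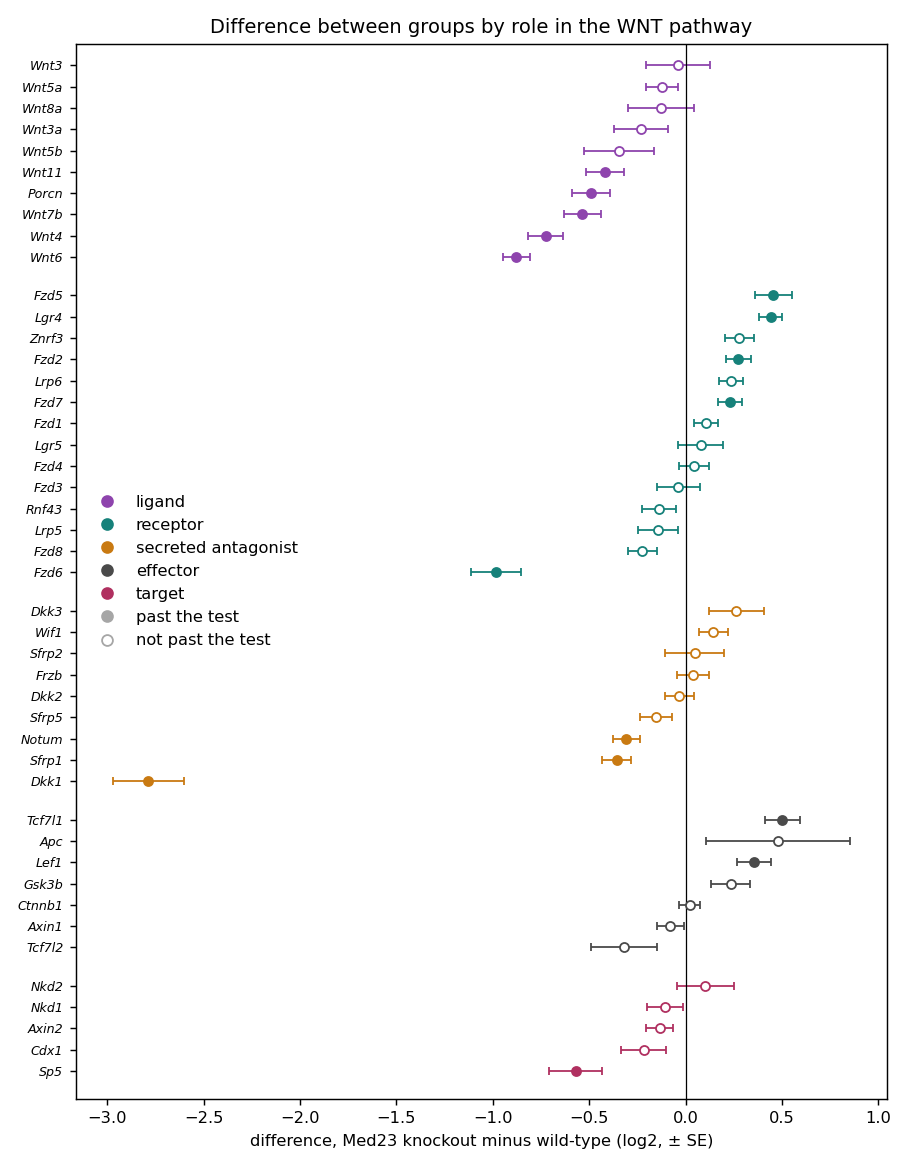
Difference between the groups (knockout minus wild-type, log2, horizontal axis) for each WNT gene, with bars of 1 SE. Genes run down the page by role and filled points passed the test. All 10 ligand-group genes lie left of 0, Dkk1 stands at -2.79, and the effector and receptor groups hold the genes that rose.

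The calls were also counted by probe set brightness, and no difference between the brightness bands or the roles was tested. Of 12 WNT genes whose probe set averaged above 7, 5 rose and 2 fell, against 13.5% of all such genes rising and 13.5% falling. Of 18 between the median of all probe sets and 7, 1 rose and 7 fell, where 9.65% and 16.5% of all genes did. In the 15 at or below the median, 1 fell (3.08% of all such genes) and none rose (2.06%). Brightness depends on the probe set as well as on the transcript, so it does not order the genes by abundance. With 1 array left out, the counts over all 3 bands were 2 to 6 rises and 5 to 8 falls.

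**Figure D2:**
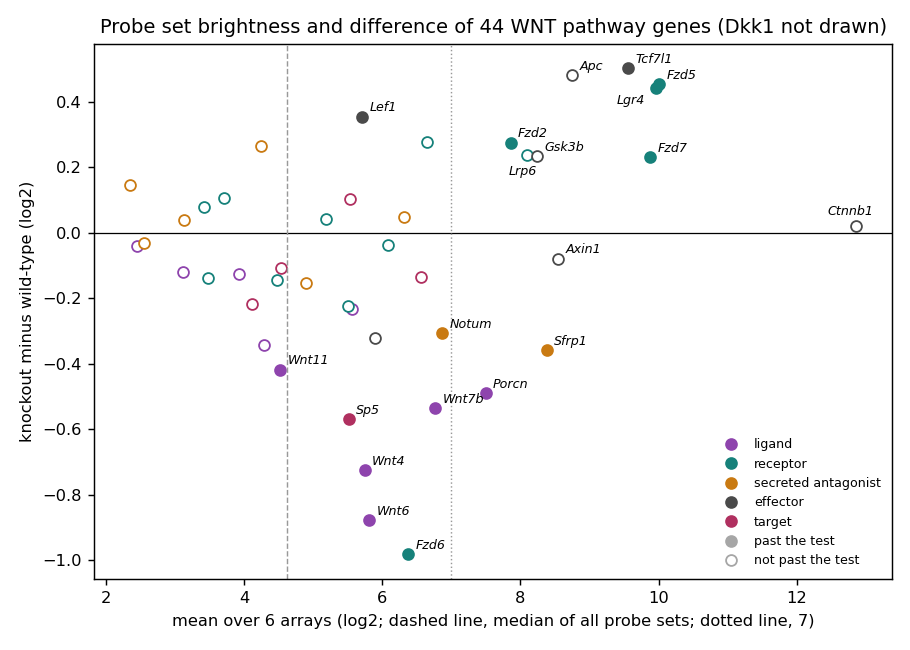
Mean deposited value over 6 arrays (log2, horizontal axis) against the difference, knockout minus wild-type (log2, vertical axis), 1 point per gene and coloured by role. Dkk1, at -2.79, is left out to keep the scale readable. Points above 7 lie mostly above 0, and most filled points below 7 lie below 0.

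Of the 9 listed Wnt genes and Porcn, 5 fell and the other 5 did not pass, all 10 with negative differences (median -0.38). Over all genes 10.4% fell. The 10 further Wnt genes of the wider pathway list had a median of 0.08, with 8 positive and 2 negative differences, and 1 of them fell. In 8 of these 10 genes both group means lay below the middle value over all probe sets. Such dim values cannot show whether a negative sign was general to Wnt genes. The other 2, Wnt7a and Wnt10b, had positive differences (0.09 and 0.11) that did not pass. Among the 9 listed Wnt genes, 4 were likewise below the middle value in both groups, so their negative signs also say little. Wnt6, a ligand gene known from primitive endoderm differentiation of mouse teratocarcinoma cells, was 5.43, 5.34 and 5.34 in the knockout arrays and 6.35, 6.20 and 6.20 in the wild-type arrays. The groups were separated by more than the spread of either, with a difference of -0.88 (SE 0.07, limma adjusted p = 0.000353). Its other probe set also fell (-0.48). Wnt4, a ligand gene of kidney and gonad development, was 5.48, 5.37 and 5.30 against 5.96, 6.23 and 6.14 in wild-type (difference -0.73, SE 0.09, limma adjusted p = 0.00232). Every knockout array was below every wild-type array, although the second Wnt4 probe set did not pass (-0.11). Wnt7b, a ligand gene of placenta and lung development, was 6.47, 6.50 and 6.54 in knockout and 7.23, 6.98 and 6.90 in wild-type (difference -0.54, SE 0.10, limma adjusted p = 0.0109), and its second probe set fell by 0.69. The wild-type values of Wnt7b varied more than the knockout ones, and the 2 groups stayed apart.

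Wnt11, which acts mainly in beta-catenin-independent signalling, was 4.27, 4.51 and 4.16 in knockout arrays against 4.71, 4.70 and 4.79 in wild-type arrays (difference -0.42, SE 0.10, limma adjusted p = 0.0316). Since the knockout values lay under the middle value of 4.62, the size of this fall is uncertain. Its call ended without knockout replicate 1 or 3 or any 1 wild-type array (adjusted p reached 0.107, without knockout replicate 1). Porcn, the acyltransferase that makes WNT proteins competent for secretion, was 7.24, 7.25 and 7.26 in knockout and 7.87, 7.82 and 7.53 in wild-type (difference -0.49, SE 0.10, limma adjusted p = 0.0167). That call ended without knockout replicate 1, 2 or 3 or wild-type replicate 2 (adjusted p reached 0.0643). Porcn is X-linked, and the 10 nearest bright genes on each side had a median difference of -0.56, so its value was close to that of its chromosomal surroundings. No other WNT gene had neighbours this low. The next lowest neighbour medians were those of the chromosome 14 genes Wnt5a (-0.36) and Fzd3 (-0.22).

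Wnt3, Wnt3a, Wnt5a, Wnt5b and Wnt8a did not pass, with differences between -0.34 (Wnt5b) and -0.04 (Wnt3). Of these only Wnt3a, the ligand most used to activate beta-catenin in culture, exceeded 4.62 in either group. It was 5.50, 5.29 and 5.54 in knockout against 5.61, 5.97 and 5.45 in wild-type, and the groups overlapped (difference -0.23, 95% interval -0.56 to 0.10). For Wnt5a, 1 of 4 probe sets fell (-0.46), with values near 3 in both groups.

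**Figure D3:**
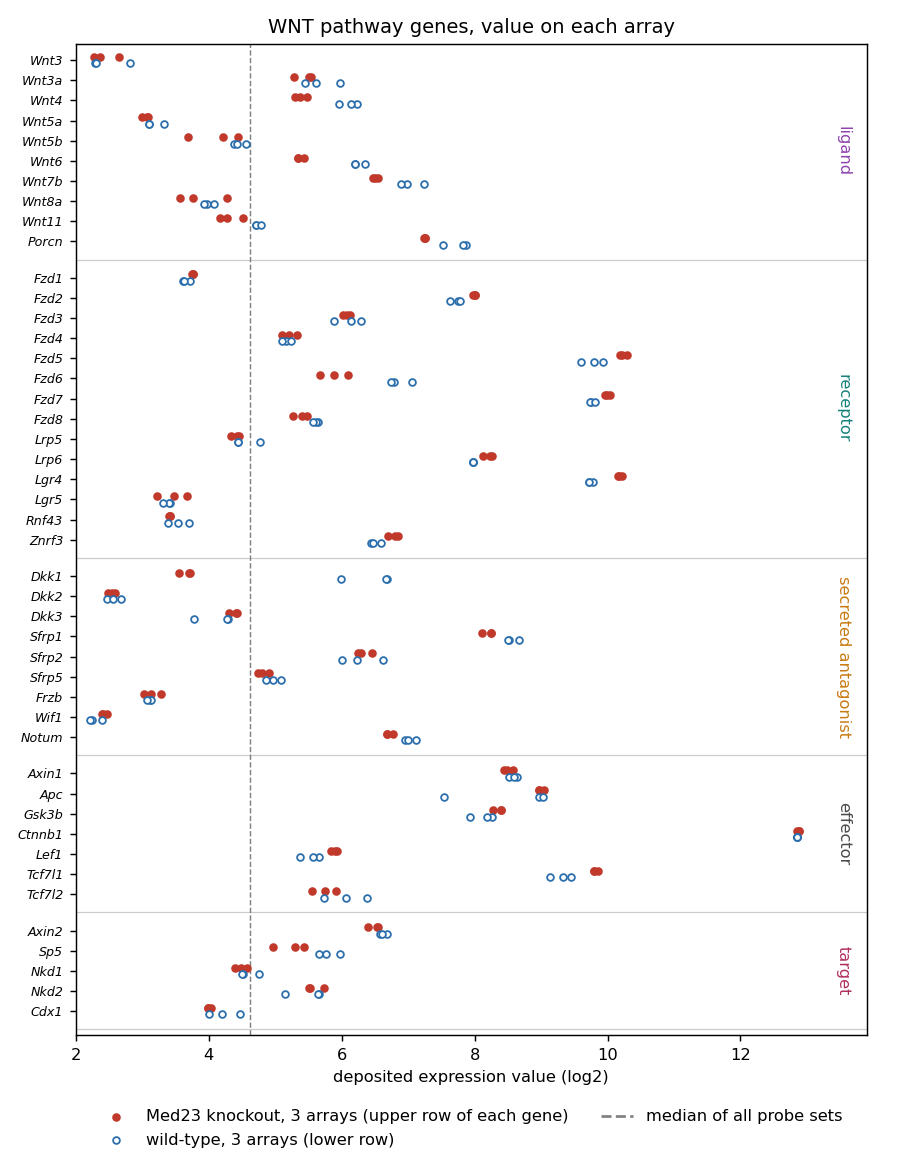
Deposited value on each array (log2, horizontal axis) of each WNT gene, listed by role, with knockout arrays as filled points above and wild-type arrays as open points below. The dashed line marks 4.62, the median over probe sets. The groups separate widely for Dkk1, and the wild-type Apc point near 7.5 is replicate 1.

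Receptor genes moved both ways: of 14, 4 rose and 1 fell, where 8.53% of all genes rose and 10.4% fell. Lgr4, which binds R-spondins and so keeps Frizzled receptors at the cell surface, was 10.18, 10.21 and 10.15 in knockout arrays and 9.72, 9.78 and 9.72 in wild-type arrays. The values within each group differed by less than 0.1, and the difference was 0.44 (SE 0.06, limma adjusted p = 0.00315). Fzd5, a Frizzled gene needed for yolk sac vessels in mice, was 10.22, 10.30 and 10.18 against 9.94, 9.80 and 9.60 in wild-type (difference 0.45, SE 0.10, limma adjusted p = 0.0213), again without overlap. Fzd2 was 8.01, 7.98 and 8.01 against 7.76, 7.63 and 7.78 (difference 0.27, SE 0.07, limma adjusted p = 0.0353). Fzd7, a Frizzled gene prominent in ES cells, was 9.96, 9.99 and 10.03 against 9.74, 9.73 and 9.81 (difference 0.23, SE 0.06, limma adjusted p = 0.0488). Their dimmer probe sets did not pass, with differences of 0.29 for Fzd5, 0.29 and 0.24 for Fzd2, 0.12 for Fzd7 and -0.09 for Lgr4. At the brightest ones all knockout arrays were the higher ones, but the 3 Frizzled rises were near the limit of the test. The Fzd5 and Fzd2 calls ended without knockout replicate 1, 2 or 3 or wild-type replicate 2 (adjusted p reached 0.0846 and 0.121), and the Fzd7 call ended whichever array was left out (adjusted p reached 0.173, without knockout replicate 3).

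The co-receptor gene Lrp6 and the ubiquitin ligase gene Znrf3, whose product removes Frizzled receptors, missed the threshold narrowly. Lrp6 was 8.13, 8.27 and 8.23 in knockout against 7.97, 7.97 and 7.98 in wild-type (difference 0.24, SE 0.06, limma adjusted p = 0.0515). Znrf3 was 6.80, 6.85 and 6.69 against 6.60, 6.43 and 6.47 (difference 0.28, SE 0.07, limma adjusted p = 0.0514). In both genes the groups were apart. The second probe set of Lrp6 had a difference of 0.19, and the dimmer one of Znrf3 had the opposite sign (-0.24), neither past the test.

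Fzd6, a Frizzled gene best known from planar cell polarity and hair patterning, went the other way. It was 6.09, 5.88 and 5.68 in knockout arrays and 7.06, 6.79 and 6.75 in wild-type arrays (difference -0.98, SE 0.13, limma adjusted p = 0.00285). The highest knockout value lay well below the lowest wild-type value. Its 2 dimmer probe sets did not pass (-0.31 and 0.04). The remaining receptor genes Fzd1, Fzd3, Fzd4, Fzd8, Lrp5, Lgr5 and Rnf43 had differences from -0.22 (Fzd8) to 0.11 (Fzd1), none past the test. Fzd1, Lrp5, Rnf43 and the intestinal stem cell marker gene Lgr5 had knockout means of 3.41 to 4.41, in the dim part of the range. For Fzd3 the 95% interval ran from -0.30 to 0.22.

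Among 9 secreted antagonist genes, 3 fell and none rose, where 10.4% of all genes fell and 8.53% rose. Dkk1, which encodes a blocker of Lrp5 and Lrp6, was 3.56, 3.71 and 3.72 in knockout arrays against 6.69, 6.66 and 5.99 in wild-type arrays. All knockout values were below 4.62 and all wild-type values were above it. The means were 3.66 ± 0.09 in knockout and 6.45 ± 0.39 in wild-type (SD, n = 3 each), a difference of -2.79 (SE 0.18, limma adjusted p = 0.000157). Whether the knockout level lies above background was not tested, so the 6.90-fold size is uncertain. The second Dkk1 probe set, dim in both groups, also fell (-0.29, limma adjusted p = 0.0448). The nearest bright genes around Dkk1 on chromosome 19 had a median of -0.05. Endoderm markers moved in the same direction as Dkk1, Wnt6 and the other lower WNT genes, and the part of any of the marker lists in these differences was not tested.

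Notum, which encodes an extracellular enzyme that strips the lipid from WNT proteins, was 6.77, 6.69 and 6.69 in knockout against 7.12, 6.95 and 6.99 in wild-type (difference -0.31, SE 0.07, limma adjusted p = 0.0315). The groups did not overlap, but the call ended without knockout replicate 1, 2 or 3 or wild-type replicate 3 (adjusted p reached 0.115). The other antagonist genes did not pass: Dkk2 and Dkk3, relatives of Dkk1, and Sfrp2, Sfrp5, Frzb and Wif1, whose products bind WNT ligands. Their differences ran from -0.15 (Sfrp5) to 0.26 (Dkk3). Sfrp2 was 6.25, 6.46 and 6.29 against 6.23, 6.01 and 6.62, and the wild-type values enclosed the knockout ones (difference 0.05, 95% interval -0.31 to 0.41).

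Sfrp1, which encodes a secreted Frizzled-like protein that binds WNT ligands, gave different answers with different probe sets. Its brightest probe set was 8.25, 8.25 and 8.12 in knockout arrays against 8.67, 8.51 and 8.51 in wild-type arrays (difference -0.36, SE 0.08, limma adjusted p = 0.0225). That call ended without knockout replicate 1, 2 or 3 or wild-type replicate 2 (adjusted p reached 0.0901). The second brightest was 6.76, 6.94 and 7.01 against 9.50, 9.22 and 9.20, 5.28-fold lower (difference -2.40, SE 0.11, limma adjusted p = 3.44e-05). The dimmest of the 5 was 4.62, 4.81 and 4.74 against 7.53, 7.16 and 7.34, a difference of -2.62 (SE 0.11, limma adjusted p = 2.57e-05). In both, the groups were far apart. The probe set of middle brightness pointed upward, with 7.874, 8.005 and 7.909 in knockout against 7.57, 7.46 and 7.45 in wild-type (difference 0.43, SE 0.07, limma adjusted p = 0.0069). The remaining probe set did not pass (difference 0.19). In each of the 4 called probe sets the groups were apart, so the disagreement was larger than the spread between arrays. Of all 9010 genes with several probe sets, 0.555% had calls in opposite directions, and Sfrp1 was the only such WNT gene. The annotation ties 3 of its 5 probe sets, one of them higher and the others lower, to a single sequence record, and the positions of the probes were not used. Which transcript of Sfrp1 changed therefore cannot be stated, and the neighbouring genes on chromosome 8 had a median of 0.14.

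**Figure D4:**
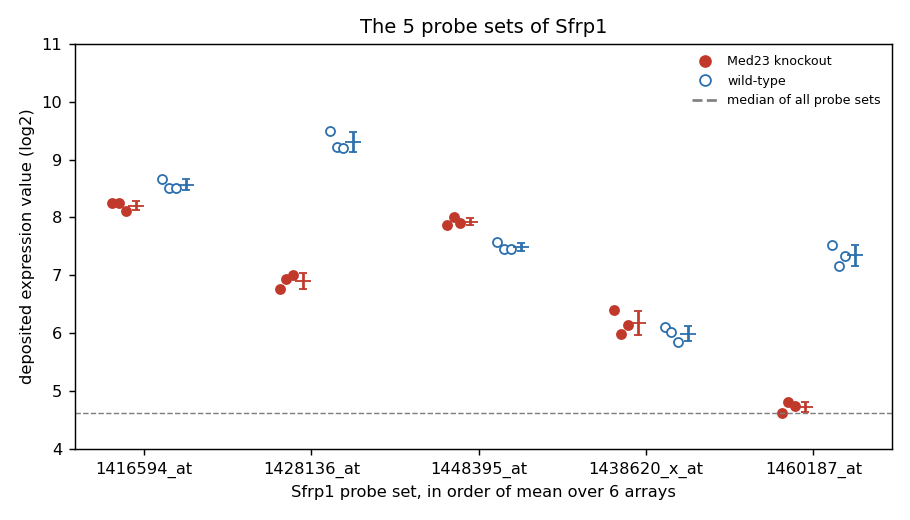
Deposited values (log2, vertical axis) of the 5 Sfrp1 probe sets, in order of mean brightness, with 3 knockout arrays (filled) left of 3 wild-type arrays (open) and the mean ± SD beside each. At the second brightest and the dimmest the knockout arrays lie over 2 units below wild-type, and at the one of middle brightness they lie above it.

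Among 7 effector genes, Tcf7l1 and Lef1 rose and none fell, where 8.53% of all genes rose and 10.4% fell. Tcf7l1, the main TCF of ES cells and largely a repressor there, was 9.79, 9.79 and 9.85 in knockout arrays and 9.46, 9.33 and 9.14 in wild-type arrays. All knockout values exceeded all wild-type values (difference 0.50, SE 0.09, limma adjusted p = 0.0109), and the second probe set rose as well (0.41). Lef1, usually an activator and itself a target in many tissues, was 5.83, 5.90 and 5.93 against 5.66, 5.57 and 5.37 (difference 0.35, SE 0.09, limma adjusted p = 0.037). Its call ended without knockout replicate 1, 2 or 3 or wild-type replicate 2 or 3 (adjusted p reached 0.127), and its dim second probe set did not pass (-0.03). Tcf7l2 overlapped between the groups (difference -0.32, 95% interval -0.72 to 0.08).

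Beta-catenin, encoded by Ctnnb1, was 12.88, 12.86 and 12.88 in knockout and 12.84, 12.86 and 12.85 in wild-type, a difference of 0.02 with a 95% interval of -0.11 to 0.15. The scaffold gene Axin1 was 8.44, 8.49 and 8.59 against 8.64, 8.51 and 8.60 (difference -0.08, 95% interval -0.25 to 0.09). These 2 genes overlapped between the groups. The kinase gene Gsk3b was 8.28, 8.40 and 8.40 against 8.27, 8.18 and 7.93 at its brightest probe set, which did not pass (difference 0.23, limma adjusted p = 0.191). All 6 Gsk3b probe sets had positive differences and 2 of them rose (0.30 and 0.35). Apc, the tumour suppressor scaffold, was 9.05, 8.96 and 8.97 in knockout against 7.53, 8.97 and 9.03 in wild-type (difference 0.48, SE 0.37, limma adjusted p = 0.484). At this brightest Apc probe set only wild-type replicate 1 differed from the rest, and without it the difference was -0.0083.

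Among 5 target genes, Sp5 fell and the others did not pass, where 10.4% of all genes fell. A single fall in so short a list says little about targets as a class. Sp5, a zinc-finger factor gene directly induced by beta-catenin, was 5.29, 5.43 and 4.97 in knockout arrays and 5.98, 5.76 and 5.66 in wild-type arrays (difference -0.57, SE 0.14, limma adjusted p = 0.0348). The groups were apart, but the call held only in the fit without knockout replicate 2 and ended without any other array (adjusted p reached 0.0909, without wild-type replicate 2). Axin2, the negative-feedback scaffold gene widely used as a readout of the pathway, was 6.54, 6.55 and 6.40 against 6.58, 6.69 and 6.61. These groups did not overlap, yet the difference of -0.13 did not pass (95% interval -0.30 to 0.03, limma adjusted p = 0.287). Nkd1 and Nkd2, which encode Dishevelled-binding inhibitors, and the homeobox gene Cdx1 had differences of -0.11, 0.10 and -0.22, with overlapping groups. Cdx1 and Nkd1 were below 4.62 in each group. Notum, Lgr5, Rnf43, Znrf3 and Lef1 are also targets in other settings, and of these Notum fell and Lef1 rose.

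Other genes of the pathway were taken from a list of 77 genes, of which 74 were measured. Of these, 5 rose and 8 fell (6.76% and 10.8%), near the 8.53% and 10.4% of all genes, with a median difference of 0.02. No called gene was found among 4 R-spondin genes, and Wnt10a, dim in both groups, fell by 0.45. The rises were Gpc3, a glypican gene (1.04, limma adjusted p = 0.000498), Wls, the WNT cargo receptor needed for secretion (0.79, limma adjusted p = 0.00192), the Frizzled-related antagonist gene Sfrp4 (0.57, limma adjusted p = 0.00268), the Groucho corepressor gene Tle3 (0.53, limma adjusted p = 0.00454) and the planar polarity gene Vangl2 (0.29, limma adjusted p = 0.0372). Wls was 5.89, 6.18 and 5.87 in knockout against 5.18, 5.19 and 5.20 in wild-type, while Porcn, which acts before it in the secretory route, fell. Among falls with a group mean above 4.62, the largest were those of Prickle1, a planar polarity gene (-0.89), Tnfrsf19 (-0.72), the cyclin gene Ccnd1 (-0.71), the WNT receptor kinase gene Ror2 (-0.51) and the casein kinase gene Csnk1d (-0.40). Ccnd1, a target in several tissues, was 9.59, 9.62 and 9.58 against 10.36, 10.33 and 10.23 in wild-type, and the groups were far apart. Tnfrsf19 lies on chromosome 14 among neighbours with a median of -0.72, equal to its own value after rounding. Leaving out 1 array ended the call of Vangl2 in all fits but the one without wild-type replicate 1 (adjusted p reached 0.135) and that of Ror2 without knockout replicate 1, 2 or 3 or wild-type replicate 2 (adjusted p reached 0.0945).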

How the data were processed

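Labelled cRNA was hybridised to Affymetrix arrays, as the labels' protocols describe. The authors deposited log2 expression values per probe set; the log base was read from their range, and RMA and MAS5 are both named, without role or version, per the submitters' processing notes. No further normalization was applied, and 0 columns belonged to other samples. No detection calls were used.

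Of 45101 probe sets, 64 controls were left out and 45037 tested with limma 3.58.1 in R 4.3.3 (lmFit, eBayes, two-sided, Benjamini-Hochberg over all 45037 probe sets, threshold 0.05; 4 residual and 3.08 prior degrees of freedom). Groups and replicate numbers came from titles. P-values measure the spread between these arrays, whose separate origin is not described further. Differences are knockout minus wild-type. Intervals (95%) use the moderated variance. Symbols came from the platform annotation (34945 probe sets with 1 symbol, 932 with several, 9160 with none).

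Neighbour medians used the 10 nearest genes on each side, in RefSeq order (GRCm38.p6), with a mean above 7. No build is named with the values. Promoter windows are RefSeq's.

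On simulated data for this comparison (45037 probe sets), 46% of 50 changes of 0.5 (log2) and 98% of those of 1 were recovered, with 16 false calls. In the simulation 44837 probe sets were left unchanged, while in the data 3013 were called higher and 3346 lower. The Benjamini-Hochberg cutoff was therefore stricter in the simulation, and these shares do not give the recovery in the data.

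The genes, lists and roles were chosen with earlier results of these data known. Named genes were all members, the 5 largest rises and 5 largest falls of the wider pathway list past the test and above the median of all probe sets, Med23 and ES markers. Wnt7a, Wnt10a, Wnt10b, Ptk7, Myc and the markers Krt7, Krt8, Krt18, Pax6, Nes, Twist1 and Thy1 were named after their values were seen. So were the markers Cdx2, Eomes, Tfap2c, Gata3, Elf5, Sox1, Tubb3 and Neurog2.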

Additional observations from a re-analysis of the deposited data

How the results depend on the processing

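Quantile normalization, centring arrays on their medians, keeping only probe sets above the median, a variance trend, array weights, averaging all probe sets of a gene and dropping Porcn (low neighbours) left the WNT counts within 1.5 times of 6 higher and 10 lower. Among values of single WNT genes under all alternatives, 496 kept direction and side of the threshold, 51 lost a call, 11 gained one and 16 changed sign. Leaving out 1 array gave 2 to 6 higher and 5 to 8 lower WNT genes, 3 to 4 lower ligand genes, 1 to 4 higher receptor genes, 1 to 3 lower antagonist genes, 1 to 2 higher effector genes, 1497 to 3494 higher probe sets over the whole table, and 5 to 10 lower and 4 to 8 higher genes of the wider list. Such fits have fewer arrays. Whether the replicate numbers pair the arrays is not stated. Correlations of same-numbered deviations were -0.13, -0.06 and 0.00, and those of other pairs ran from -0.11 to 0.12. With 3 arrays per group these values cannot settle the pairing. With the replicate block 3 WNT genes were higher (2 receptor and 1 effector genes), as were 1915 probe sets in the whole table. The wider list had 8 higher genes when only probe sets above the median were kept and 13 lower genes with a variance trend; the cause was not tested.

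Sign changes among uncalled genes were those of Ctnnb1 (-0.0003004 after quantile normalization) and Nkd1 (0.068 with all probe sets averaged), and, over fits leaving out 1 array, Wnt3 (-0.15 to 0.13), Wnt8a (-0.33 to 0.023), Frzb (-0.031 to 0.10), Fzd3 (-0.15 to 0.057), Fzd4 (-0.012 to 0.10), Lgr5 (-0.030 to 0.20), Sfrp2 (-0.091 to 0.21), Dkk2 (-0.081 to 0.022), Nkd2 (-0.067 to 0.19) and Apc (-0.0083 to 0.74). Sfrp1 read by other probe sets, an alternative chosen after seeing the data, gave -2.40, 0.43, 0.19 and -2.62. With all probe sets averaged, Lgr4, Fzd7 and Lef1 lost their calls while Lrp6 and Gsk3b gained calls, so the similar count of rises covered different genes. No detection calls limit what dim values can show.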

Other observations

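The Apc transcript was low in wild-type replicate 1 at 3 of its 4 probe sets. At the second brightest it was 7.15, 6.85 and 6.98 in knockout arrays against 5.48, 7.47 and 7.57 in wild-type arrays, and at the third 6.93, 6.75 and 6.81 against 5.45, 6.72 and 6.83. The fourth probe set, near 3 in all arrays, showed no such value.

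Ptk7, a pseudokinase receptor gene of the wider list, was 8.50, 8.52 and 8.48 in knockout against 8.93, 8.74 and 8.93 in wild-type (difference -0.36, limma adjusted p = 0.0188), lower in all 3 knockout arrays. The proto-oncogene Myc, a target in other tissues, was 9.03, 8.87 and 8.94 against 9.55, 9.37 and 9.12 (difference -0.40, limma adjusted p = 0.0654) and did not pass, although the groups were apart.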
